A study of Saccharomyces cerevisiae with 12 samples.

Results

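The genes described here are 10 chaperone genes of budding yeast that are known targets of the heat shock factor Hsf1, namely SSA1, SSA2, SSA4, HSP82, HSC82, SSE1, SIS1, HSP104, BTN2 and FES1. They were chosen by name, with earlier results of these data known. Each is represented by 1 probe set, and all 10 were among the 5449 budding yeast genes measured. Expression was measured on 12 Affymetrix yeast arrays, with 2 arrays for each of 6 strains of the haploid CEN.PK113-7D background. All strains were sampled in mid exponential growth on minimal galactose medium in fermenters at pH 5.0. The arrays labelled E62A, E62B and E62C come from 3 mutants that, as known from the study, were evolved by prolonged cultivation on galactose. Those labelled SO16 come from a strain that, as known from the study, lacks GAL80, MIG1 and LAP3, and those labelled PGM2 from a strain made to overexpress PGM2. The arrays labelled REF come from the parent strain. Whether both arrays of a strain had cultures of their own, and whether an evolved strain is 1 clone, is not stated in the labels. The p values therefore measure only the spread between these arrays, which may be technical.

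Hsf1 is an essential transcription factor that binds heat shock elements in promoters. In unstressed cells it keeps chaperone genes at a basal level and is held in check by Hsp70 and the Hsp40 protein Sis1, and when proteins unfold it is released and transcription of its targets rises. The products work as a chain, in which Hsp40 proteins hand substrates to Hsp70, nucleotide exchange factors reset Hsp70, Hsp90 matures client proteins, Hsp104 pulls aggregates apart and sequestrases collect misfolded proteins at set sites. Some of these genes, HSP104 and SSA4 among them, also respond to the general stress activators Msn2 and Msn4.

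GAL80, LAP3 and MIG1 were at or near the background level of 6.002 on the arrays labelled SO16, with 5.62 to 6.29, against 9.20 to 11.43 on the REF arrays. The PGM2 transcript conflicted with its label, with 10.49 and 10.87 for the arrays labelled PGM2 and 13.43 and 13.19 for those labelled E62C, against 12.14 and 12.11 on the REF arrays, so directions drawn from the labels E62C and PGM2 carry this conflict. E62C replicate 2 and SO16 replicate 2 had hybridisation controls of 9.87 to 9.89 and ribosomal RNA signal of 10.40 to 10.70, against 11.01 to 12.34 and 8.26 to 9.40 on the other 10 arrays. The difference between the 3′ and 5′ probe sets of the actin gene ACT1, a measure of RNA integrity, was 0.53 and 0.59 on these 2 arrays and 0.48 to 0.66 on the others. The mating type a markers MFA1, MFA2, STE2 and BAR1 lay at 9.51 to 12.47 over the 12 arrays and the alpha markers MF(ALPHA)1 and STE3 at 6.47 to 8.80, and each of these genes was lowest on an array labelled E62A.

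The chaperone genes did not move as 1 block. SSA4 was lower than on the REF arrays in 3 of the 5 other groups and SSA1 and HSP104 in 2 each, while BTN2 was higher in 3, FES1 in 2 and SSA2 in 1. The Hsp90 genes HSP82 and HSC82, SSE1 and SIS1 passed the test in 0 of the 5 groups. An array of a whole culture cannot tell fewer expressing cells from less RNA per cell. Levels are RMA values on a log2 scale, and differences come from a limma fit over all 5449 genes with Benjamini-Hochberg adjustment and a threshold of 0.05. By this test 1 of the 10 genes changed on the arrays labelled E62A, where 12.5% of all genes did, and that gene was lower, as were 6.97% of all genes. For E62B 0 of 10 passed, as did 0% of all genes, the smallest adjusted p of the 10 was 1, and 2 of the 10 had an unadjusted p under 0.05, as did 1.78% of all genes. For E62C 6 of 10 passed, against 9.8% of all genes, and of these 3 were higher (4.84% of all genes) and 3 lower (4.96%). For SO16 1 of 10 passed, against 8.79% of all genes, and it was higher (3.69%). For PGM2 5 of 10 passed, against 13.6% of all genes, and of these 2 were higher (7.03%) and 3 lower (6.53%). In this fit the shares for E62A and SO16 are near the background of all genes, and those for E62C and PGM2 lie above it. Since the 10 genes were chosen with earlier results of these data known, these shares are a description and no independent test. They depended on the setting, with 3 of 10 for E62A with array weights, where 1224 of all 5449 genes passed. For SO16 3 of 10 passed with centred array medians, where 595 of all genes did. The median difference of the 10 genes was -0.14 for E62A, -0.06 for E62B, 0.06 for E62C, 0.09 for SO16 and 0.11 for PGM2, beside medians of all genes between -0.004 and 0.027.

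The counts for E62C and PGM2 depended on single arrays. For E62C the count was 3 without E62C replicate 1, E62C replicate 2 or REF replicate 1 and 1 without REF replicate 2. For PGM2 it was 1 without PGM2 replicate 1, PGM2 replicate 2 or REF replicate 2 and 3 without REF replicate 1. Over all genes the number of calls also fell in these fits, except in the one without E62C replicate 1. An alternative chosen after seeing the data left out both E62C replicate 2 and SO16 replicate 2. It left 1 array each for E62C and SO16, so no counts are given for these groups. The counts were then 3 for E62A, 0 for E62B and 7 for PGM2. In that fit 1246, 3 and 1211 of all 5449 genes passed, against 683, 0 and 739 with all arrays, so the rise was not particular to the chaperone genes. Of the 13 calls, 4 stood under all 14 alternatives, namely SSA4 on the arrays labelled E62A and E62C and BTN2 on those labelled SO16 and PGM2.

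**Figure D1:**
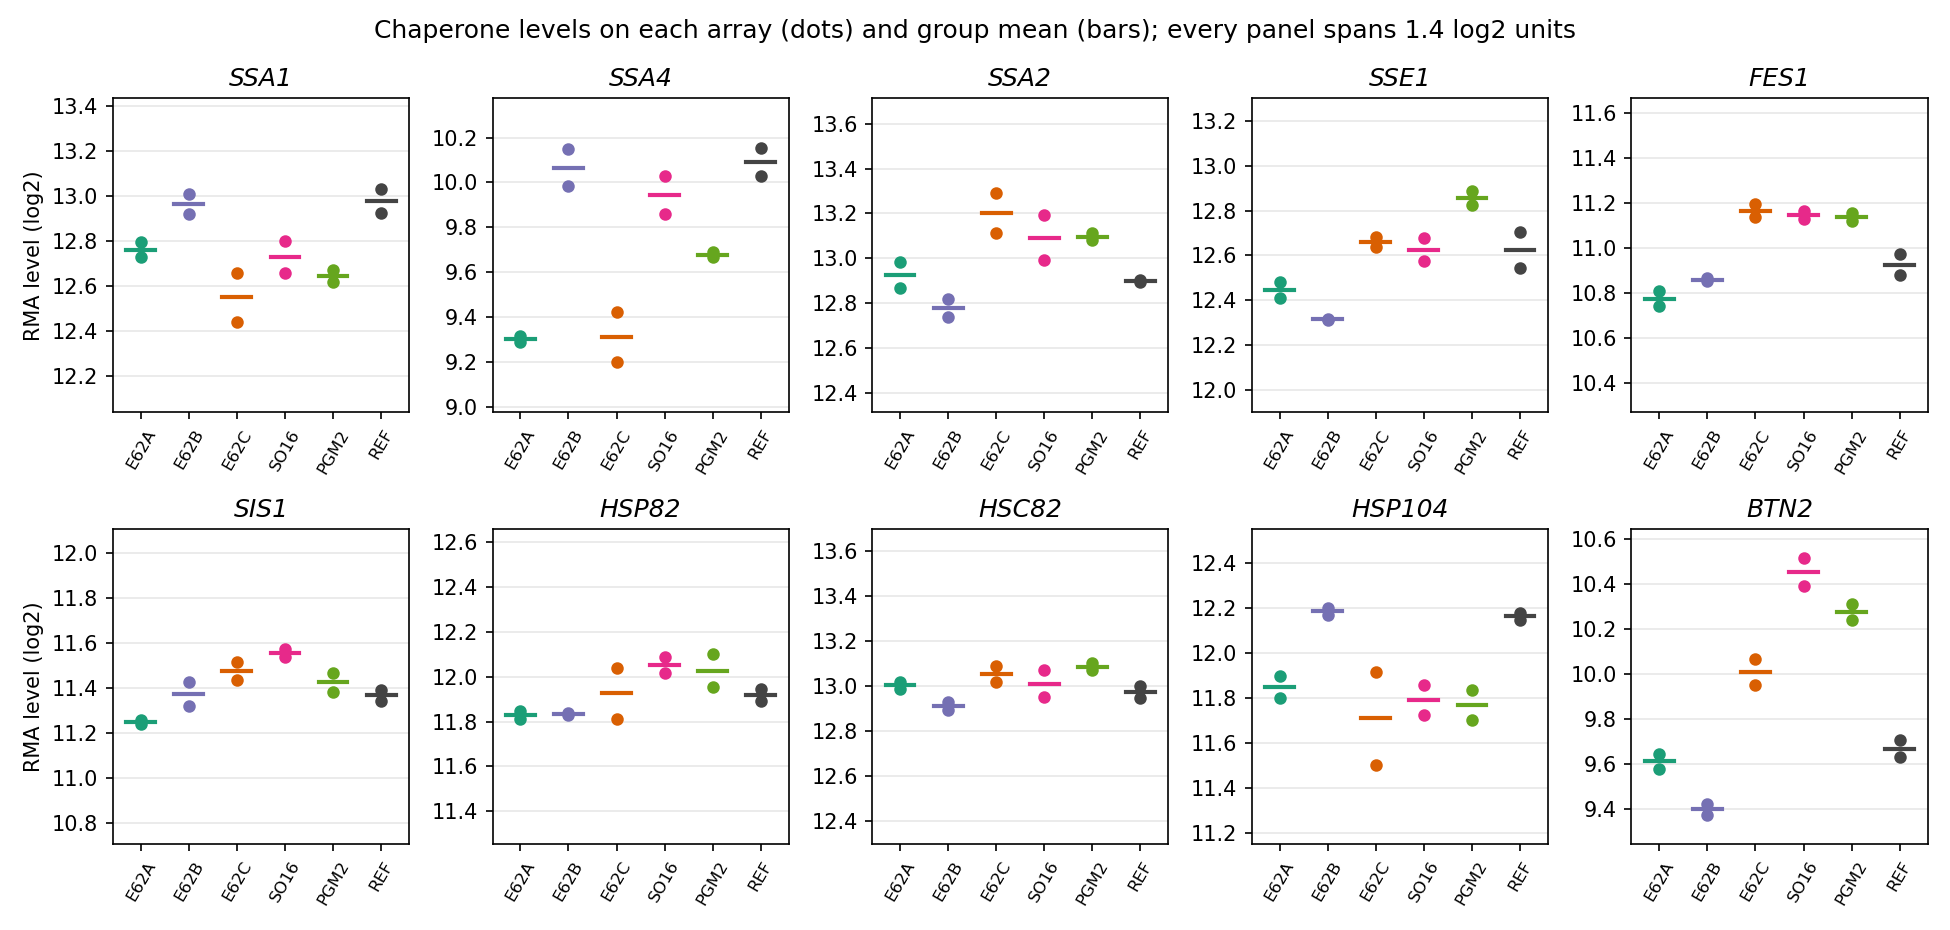
Levels of the 10 chaperone genes on each of the 12 arrays (dots, RMA level in log2 units on the vertical axis) with the mean of each group of 2 arrays (bars), in panels of equal span. SSA4 is lowest on the arrays labelled E62A and E62C, at 9.20 to 9.42, and BTN2 is highest on those labelled SO16 and PGM2, at 10.24 to 10.52.

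Among the Hsp70 genes, SSA4 (YER103W) encodes a form that is little expressed in unstressed cells and strongly induced by heat. Its levels were 9.32 and 9.29 on the arrays labelled E62A, 10.15 and 9.98 on E62B, 9.20 and 9.42 on E62C, 9.86 and 10.03 on SO16 and 9.69 and 9.67 on PGM2, against 10.03 and 10.15 on REF. The arrays labelled E62A, E62C and PGM2 all lay below both REF arrays, and those labelled E62B and SO16 overlapped them. SSA4 was 1.72-fold lower on the arrays labelled E62A (-0.79 ± 0.09 SE, n = 2 arrays each, limma adjusted p = 0.000217), and the call stood without any 1 of the arrays compared. It was also 1.72-fold lower on those labelled E62C (-0.78 ± 0.09, limma adjusted p = 0.000298) and 1.33-fold lower on those labelled PGM2 (-0.41 ± 0.09, limma adjusted p = 0.014). The call for PGM2 ended without PGM2 replicate 1 (adjusted p = 0.0737), PGM2 replicate 2 (0.0695) or REF replicate 2 (0.112). For SO16 the difference was -0.15 ± 0.09 and for E62B -0.02 ± 0.09, neither past the threshold.

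SSA1 (YAL005C) and SSA2 (YLL024C) encode near-identical Hsp70 proteins that are made during normal growth. SSA1 lay at 12.73 and 12.80 on the arrays labelled E62A, 13.01 and 12.92 on E62B, 12.44 and 12.66 on E62C, 12.66 and 12.80 on SO16 and 12.62 and 12.67 on PGM2, against 12.92 and 13.03 on REF. SSA2 lay at 12.87 and 12.98 on the arrays labelled E62A, 12.74 and 12.82 on E62B, 13.11 and 13.29 on E62C, 12.99 and 13.19 on SO16 and 13.11 and 13.08 on PGM2, against 12.90 and 12.90 on REF. In E62C, SO16 and PGM2 all SSA1 values were below REF and all SSA2 values above it. Both E62A arrays also lay below REF for SSA1, by -0.22 ± 0.09 (adjusted p = 0.139 in limma). A lack of overlap of 2 against 2 arrays is only a description, since the smallest exact permutation p is 0.333. In E62C SSA1 fell by 0.43 ± 0.09 on the log2 scale (limma adjusted p = 0.00915) and SSA2 rose by 0.30 ± 0.09 (limma adjusted p = 0.0493). In PGM2 SSA1 fell by 0.33 ± 0.09 (limma adjusted p = 0.0269), while SSA2 lay 0.20 ± 0.09 above REF with an adjusted p of 0.179. In SO16 the differences were -0.25 ± 0.09 for SSA1 (adjusted p = 0.117 in limma) and 0.19 ± 0.09 for SSA2 (adjusted p = 0.23 in limma).

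The SSA1 call for E62C ended without E62C replicate 1 (adjusted p = 0.0518) or REF replicate 2 (0.0733), and the SSA2 call for E62C ended without E62C replicate 2 (0.243) or either REF array (0.204 without replicate 1 and 0.151 without replicate 2). The SSA1 call for PGM2 ended without any 1 of the 4 arrays compared, with adjusted p values of 0.0581 to 0.166. The probe sets of SSA1 and SSA2 carry names without the suffix that marks sets shared between transcripts, but whether RNA of 1 gene bound to the probes of the other was not tested, nor was it for HSP82 and HSC82.

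SSE1 (YPL106C) and FES1 (YBR101C) encode nucleotide exchange factors, which release ADP so that Hsp70 can let go of its substrate. SSE1, the larger one and a relative of Hsp70 itself, lay at 12.48 and 12.41 on the arrays labelled E62A, 12.32 and 12.31 on E62B, 12.64 and 12.68 on E62C, 12.68 and 12.58 on SO16 and 12.89 and 12.83 on PGM2, against 12.70 and 12.54 on REF. Its values were lowest on the arrays labelled E62B and highest on those labelled PGM2, and it passed the test in 0 of the 5 comparisons with REF. The difference was -0.31 ± 0.07 for E62B (adjusted p = 1 in limma, unadjusted p = 0.00139) and 0.23 ± 0.07 for PGM2 (adjusted p = 0.0574 in limma). The PGM2 result lay at the threshold, since it passed in 6 of the 14 alternatives, with limma adjusted p values of 0.0269 to 0.0453. Among them was the fit without REF replicate 1, where the difference was 0.31.

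FES1 lay at 10.74 and 10.81 on the arrays labelled E62A, 10.87 and 10.86 on E62B, 11.20 and 11.14 on E62C, 11.13 and 11.17 on SO16 and 11.12 and 11.16 on PGM2, against 10.88 and 10.97 on REF. Its arrays thus fell into a higher set of E62C, SO16 and PGM2 and a lower set of E62A, E62B and REF with no overlap. This split was drawn after the values were seen and was not tested. FES1 rose by 0.24 ± 0.06 on the arrays labelled E62C (limma adjusted p = 0.0364) and by 0.21 ± 0.06 on those labelled PGM2 (limma adjusted p = 0.0493). On those labelled SO16 it lay 0.22 ± 0.06 above REF, just short of the threshold (adjusted p = 0.0562 in limma). The FES1 calls ended without any 1 of the 4 arrays compared, with adjusted p values of 0.0519 to 0.244 for E62C and 0.0713 to 0.269 for PGM2.

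SIS1 (YNL007C) encodes an essential Hsp40 protein that directs Hsp70 to misfolded substrates. Its levels were 11.24 and 11.25 on the arrays labelled E62A, 11.32 and 11.43 on E62B, 11.52 and 11.43 on E62C, 11.57 and 11.53 on SO16 and 11.38 and 11.47 on PGM2, against 11.34 and 11.39 on REF. The arrays labelled E62A were the lowest and those labelled SO16 the highest. Neither passed against REF, at -0.12 ± 0.07 for E62A (adjusted p = 0.298 in limma) and 0.19 ± 0.07 for SO16 (adjusted p = 0.127 in limma). SIS1 was lower on the arrays labelled E62A than on those labelled SO16 (-0.31 ± 0.07, limma adjusted p = 0.00781). It was also lower on E62A than on E62C (-0.23 ± 0.07, limma adjusted p = 0.0364). These direct comparisons were not repeated with arrays left out.

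HSP82 (YPL240C) encodes the heat-inducible and HSC82 (YMR186W) the constitutive form of Hsp90. HSP82 lay at 11.85 and 11.81 on the arrays labelled E62A, 11.84 and 11.83 on E62B, 11.81 and 12.04 on E62C, 12.09 and 12.01 on SO16 and 11.95 and 12.10 on PGM2, against 11.89 and 11.94 on REF. HSC82 lay at 13.02 and 12.99 on the arrays labelled E62A, 12.90 and 12.93 on E62B, 13.09 and 13.02 on E62C, 13.07 and 12.95 on SO16 and 13.07 and 13.10 on PGM2, against 12.95 and 12.999 on REF. The group means of HSP82 spanned 0.22 and those of HSC82 0.17, the narrowest of the 10 genes. By limma both passed in 0 of all 15 comparisons between the 6 groups, with an unadjusted p under 0.05 in 4 for HSP82 and 1 for HSC82. Of all genes 41.8% passed in at least 1, so most genes likewise passed in 0. The 95% intervals of their differences from REF reached at most from -0.27 (HSP82, E62A) to 0.32 (HSP82, SO16), so changes within this range are not excluded.

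HSP104 (YLL026W) encodes the disaggregase that threads proteins out of aggregates. Its levels were 11.80 and 11.90 on the arrays labelled E62A, 12.20 and 12.17 on E62B, 11.50 and 11.92 on E62C, 11.72 and 11.86 on SO16 and 11.70 and 11.84 on PGM2, against 12.18 and 12.15 on REF. All 8 arrays labelled E62A, E62C, SO16 and PGM2 lay below all 4 labelled E62B and REF, a split that was drawn after the values were seen and not tested. HSP104 fell by 0.45 ± 0.12 on the arrays labelled E62C (limma adjusted p = 0.0302) and by 0.39 ± 0.12 on those labelled PGM2 (limma adjusted p = 0.044). For SO16 the difference was -0.37 ± 0.12 (adjusted p = 0.0751 in limma) and for E62A -0.32 ± 0.12 (adjusted p = 0.104 in limma). The replicates of E62C differed most for this gene (SD 0.29, n = 2), and E62C replicate 2, the array with weak hybridisation controls, was the higher one. Leaving out E62C replicate 2 and SO16 replicate 2 was an alternative chosen after the values were seen. The HSP104 difference was then -0.32 for E62A and -0.44 for SO16, with a single array left for SO16.

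The HSP104 call for E62C ended without E62C replicate 1, where the adjusted p was 0.117, and without either REF array, where it was 0.172 (replicate 1) and 0.1 (replicate 2). The HSP104 call for PGM2 ended without any 1 of the 4 arrays compared, with adjusted p values of 0.0768 to 0.273. HSP104 and SSA2 lie close together in assembly R64, with PAU17 between them, and they moved in opposite directions on the arrays labelled E62C.

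BTN2 (YGR142W) encodes a sequestrase that gathers misfolded proteins into deposits. Its levels were 9.64 and 9.58 on the arrays labelled E62A, 9.42 and 9.37 on E62B, 9.95 and 10.07 on E62C, 10.39 and 10.52 on SO16 and 10.31 and 10.24 on PGM2, against 9.71 and 9.63 on REF. Its group means spanned 1.06, the widest range of the 10 genes. BTN2 was 1.73-fold higher on the arrays labelled SO16 (0.79 ± 0.07, limma adjusted p = 4.17e-05), 1.52-fold higher on those labelled PGM2 (0.61 ± 0.07, limma adjusted p = 0.000187) and 1.27-fold higher on those labelled E62C (0.34 ± 0.07, limma adjusted p = 0.0126). The call for E62C ended without E62C replicate 2 (adjusted p = 0.0767) or REF replicate 2 (0.0837). In E62B BTN2 lay 0.27 ± 0.07 below REF with no overlap, yet it did not pass (adjusted p = 1 in limma, unadjusted p = 0.00332). On those labelled E62A the difference was -0.06 ± 0.07.

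**Figure D2:**
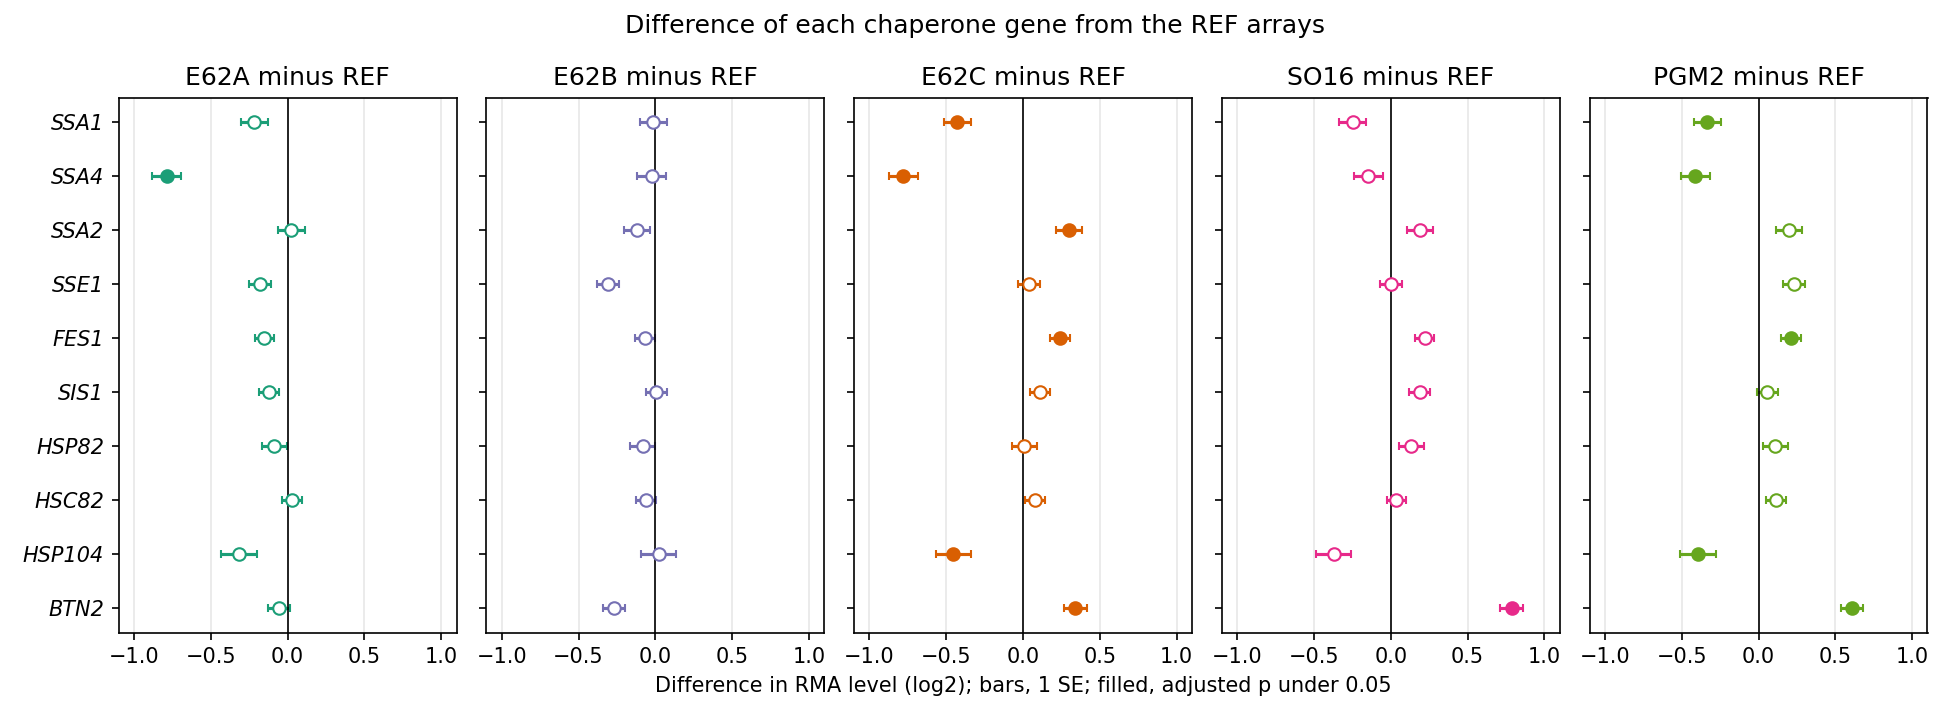
Difference of each chaperone gene from the REF arrays in log2 units (horizontal axis) for the 5 other groups, with bars of 1 SE from the limma fit and filled dots where the adjusted p was under 0.05. SSA1, SSA4 and HSP104 lie left of 0 and BTN2 and FES1 right of 0 in the panels of E62C, SO16 and PGM2, while in that of E62A SSA4 is the filled dot, at -0.79.

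The groups other than REF were also compared directly with each other. Unlike the comparisons with REF, these were not repeated under the alternatives or with arrays left out. How far their calls, here and below, depend on single arrays was not tested. The arrays labelled E62B differed in 7 of the 10 genes from those labelled E62C (12.1% of all genes) and in 7 from those labelled PGM2 (16.9%). Against E62C 3 were higher in E62B (6.59% of all genes) and 4 lower (5.47%), and against PGM2 3 were higher (9.01%) and 4 lower (7.87%). SSA1, SSA4 and HSP104 were the higher genes and SSA2, SSE1, BTN2 and FES1 the lower ones in both comparisons. The arrays labelled E62B differed from those labelled SO16 in 4 genes, all lower in E62B (10.8% of all genes passed and 4.28% were lower), with BTN2 at -1.06 ± 0.07 (limma adjusted p = 3.36e-06).

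The arrays labelled E62A also differed from those of SO16, PGM2 and E62C in 4 genes each, all lower in E62A. Of all genes 19.9% passed against SO16 (9.49% lower), 22.7% against PGM2 (12.1% lower) and 17.8% against E62C (9.97% lower). BTN2 and FES1 were among the 4 each time, with FES1 at -0.37 ± 0.06 against SO16 (limma adjusted p = 0.00184). BTN2 differed by -0.84 ± 0.07 between E62A and SO16 (limma adjusted p = 1.47e-05). From E62B the arrays labelled E62A differed in 1 gene, SSA4, at -0.76 ± 0.09 (limma adjusted p = 0.000262, 12.4% of all genes passed and 7.3% were lower).

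The genes ordered the strains differently. SSA4 increased in the order E62A, E62C, PGM2, SO16, E62B and REF, and in this order only the step of 0.37 between E62C and PGM2 passed the test (limma adjusted p = 0.0334). E62A and E62C did not differ in SSA4 beyond their spread, with a difference of -0.006 and a 95% interval of -0.21 to 0.20. SSA4 was lower on the arrays labelled E62C than on those labelled SO16 (-0.63 ± 0.09, limma adjusted p = 0.00248), in a comparison where 2 of the 10 genes and 3.43% of all genes passed, with both lower in E62C (1.91% of all genes).

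BTN2 increased in the order E62B, E62A, REF, E62C, PGM2 and SO16. The steps of 0.34 between REF and E62C and 0.27 between E62C and PGM2 passed (limma adjusted p = 0.0126 and 0.0438), and the step of 0.18 between PGM2 and SO16 did not (adjusted p = 0.225 in limma). Between PGM2 and E62C 2 of the 10 genes passed, BTN2 and SSA4, both lower in E62C, where 8.85% of all genes passed and 4.97% were lower. The arrays labelled SO16 and PGM2 differed in 0 of the 10 genes by limma, with 3 at an unadjusted p under 0.05, where 3.4% of all genes passed and 17.2% had such a p. In all, BTN2 passed in 11 and SSA4 in 10 of the 15 comparisons, as at least 10 did for 2.88% of all genes. FES1 passed in 8, SSA2 in 5, SSA1, HSP104 and SSE1 in 4 each and SIS1 in 2, and 7.08% of all genes passed in at least 8.

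Correlations between the genes over the 12 arrays are given as a description of these arrays, which share 6 strains and 1 normalization. SSA1 and HSP104 had the highest Pearson r of the 45 pairs, 0.94, and SSA4 had 0.76 with SSA1 and 0.70 with HSP104. SSA2, BTN2 and FES1 had r values of 0.77 to 0.84 with each other. The 9 pairs that join SSA1, SSA4 or HSP104 to SSA2, BTN2 or FES1 all had r below 0, between -0.68 and -0.07, and this split was drawn after the values were seen. HSC82 ran against SSA1 at -0.82, the lowest of all pairs.

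**Figure D3:**
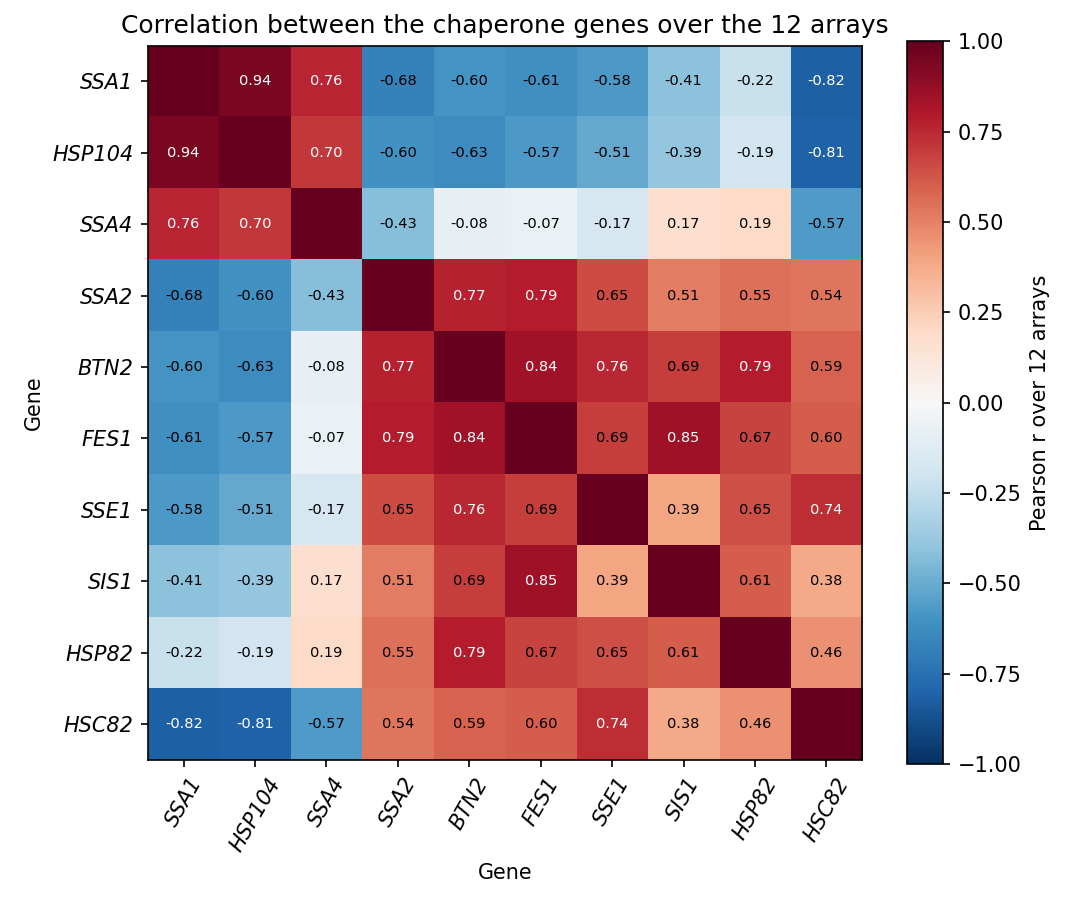
Pearson r over the 12 arrays between each pair of the 10 chaperone genes, which are named on both axes (blue below 0, red above 0). SSA1, HSP104 and SSA4 form a red block of 0.70 to 0.94, and SSA1 and HSP104 are blue with each of the other 7 genes.

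Genes outside the group were ranked by Pearson r over the 12 arrays. Closest to the mean of the centred 10 genes were TAF9 (0.93), OPI10 (0.93), HIM1 (0.92), MIM2 (0.92) and AHA1 (0.92). OPI10 and AHA1, an activator of the Hsp90 ATPase, are themselves on the lists of Hsf1 targets and cochaperones below. The nearest gene to SSA1 was PNC1 (0.96), a nicotinamidase and general stress gene, and the nearest to HSP104 was STF2 (0.95). BTN2 ran closest to RTS3 (0.96), FES1 to LST8 (0.98), a subunit of the TOR complexes, SSA2 to OAZ1 (0.95), SSA4 to GRE2 (0.92) and SIS1 to SWC4 (0.94). For SSE1 the nearest was REX3 (0.93), for HSC82 PRO1 (0.90) and for HSP82 the ubiquitin-conjugating enzyme gene UBC4 (0.85).

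The partners of these chaperones were examined as lists, all chosen with earlier results of these data known. Their counts are therefore a description and no independent test. They stand beside the shares of all genes that were higher or lower. These shares were 5.56% and 6.97% for E62A, 4.84% and 4.96% for E62C, 3.69% and 5.1% for SO16 and 7.03% and 6.53% for PGM2. Of 12 Hsp90 cochaperones, 0 rose and 1 fell on the arrays labelled E62A, 1 rose on those labelled SO16 and 3 rose on those labelled PGM2, with medians between -0.05 (E62B) and 0.10 (E62C) over the 5 comparisons. The count for E62A was 0 without E62A replicate 1, E62A replicate 2 or REF replicate 2, and that for SO16 was 0 without SO16 replicate 2, REF replicate 1 or REF replicate 2. The count for PGM2 was 1 without PGM2 replicate 1 or REF replicate 2 and 0 without PGM2 replicate 2 or REF replicate 1, and that for E62C, 0 with all arrays, was 3 without E62C replicate 1. AHA1 lay at 11.36 and 11.32 on the arrays labelled E62A and 11.87 and 12.01 on those labelled PGM2, against 11.57 and 11.71 on REF, and changed by -0.30 ± 0.07 and 0.30 ± 0.07 (limma adjusted p = 0.0206 and 0.0229). The AHA1 call for E62A ended without E62A replicate 1 (adjusted p = 0.0981), E62A replicate 2 (0.162) or REF replicate 2 (0.15), and that for PGM2 ended without PGM2 replicate 2 (0.158) or REF replicate 1 (0.171). Of the 10 other cytosolic Hsp70 and Hsp40 genes, 0 rose and 2 fell for E62A, 2 rose and 1 fell for E62C, 2 rose and 1 fell for SO16, and 1 rose and 1 fell for PGM2. In total 1 gene was left for E62A and for PGM2 without any 1 of the arrays compared, for E62C without E62C replicate 2 or REF replicate 1, and for SO16 without SO16 replicate 2, REF replicate 1 or REF replicate 2. SSE2, the stress-induced paralogue of SSE1, fell in each of these 4 groups. It changed by -0.48 ± 0.08 for E62A, -0.59 ± 0.08 for E62C, -0.61 ± 0.08 for SO16 and -0.47 ± 0.08 for PGM2 (limma adjusted p = 0.00228, 0.000772, 0.000576 and 0.00251), and each call stood without any 1 array. YDJ1, the main cytosolic Hsp40, rose by 0.31 ± 0.08 for E62C, 0.31 ± 0.08 for SO16 and 0.29 ± 0.08 for PGM2 (limma adjusted p = 0.0244, 0.0235 and 0.0284). The YDJ1 call for E62C ended without E62C replicate 2 (adjusted p = 0.117) or REF replicate 1 (0.19). The YDJ1 call for SO16 ended without SO16 replicate 2 (adjusted p = 0.0997) or either REF array (0.188 without replicate 1 and 0.0509 without replicate 2), and that for PGM2 without any 1 of the 4 arrays compared (0.0598 to 0.179).

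In the list of 9 small heat shock proteins, sequestrases and further Hsf1 targets, 5 fell on the arrays labelled E62A and 4 each on those labelled E62C, SO16 and PGM2, with medians of -0.30, -0.07, 0.03 and -0.09. The count for E62A was 2 without E62A replicate 1, E62A replicate 2 or REF replicate 2 and 3 without REF replicate 1. HSP26, a small heat shock protein, changed most, by -2.70 ± 0.12 for E62A, -2.49 ± 0.12 for E62C, -2.73 ± 0.12 for SO16 and -3.45 ± 0.12 for PGM2. HSP30, a membrane protein that restrains the proton pump, was also lower on these arrays. Its changes lay between -1.59 ± 0.11 (PGM2) and -0.77 ± 0.11 (SO16). Whether Hsf1 drives the genes of this list in these strains was not tested, so their falls are not read as falls of Hsf1 targets. The sequestrase HSP42, looked up after the values were seen, changed by -0.74 ± 0.10 for E62C, -0.54 ± 0.10 for SO16 and -0.77 ± 0.10 for PGM2 (limma adjusted p = 0.000486, 0.0043 and 0.000258), where BTN2 was higher. For E62A it changed by -0.39 ± 0.10 (limma adjusted p = 0.0204), a call that ended without any 1 of the 4 arrays compared (0.0599 to 0.157). The 1 gene of this list that rose, for SO16, was RPN4, an activator of proteasome genes also chosen after its values were seen, at 0.37 ± 0.08 (limma adjusted p = 0.0172). The RPN4 call ended without SO16 replicate 2 (adjusted p = 0.0785) or REF replicate 1 (0.154).

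The list of 20 general stress genes driven by Msn2 and Msn4 was, like the other lists, chosen with earlier results of these data known. Its counts are therefore a description and no independent test. Of these genes 17 fell on the arrays labelled E62A, 18 on E62C, 19 on SO16 and 20 on PGM2. The 1 gene that rose was PGM2, on the arrays labelled E62C, and its fall on those labelled PGM2 conflicted with the label. The list medians were -0.66, -1.05, -0.81 and -0.94. On the arrays labelled E62B the median was 0.10, with 0 genes past the threshold by limma and 3 at an unadjusted p under 0.05. DDR2 changed by -1.72 ± 0.12 for E62A and HSP12, a membrane-stabilising hydrophilin, by -2.08 ± 0.15 for SO16. Of 7 heat shock and stress transcription factor genes 0 passed in each of the 5 comparisons by limma and 0 (E62B) to 3 (SO16) had an unadjusted p under 0.05, with HSF1 between -0.01 ± 0.10 for E62C and 0.18 ± 0.10 for SO16. HSF1 transcript level is not a measure of Hsf1 activity, which was not measured.

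Chaperones elsewhere in the cell changed in few cases, with the endoplasmic reticulum on the arrays labelled PGM2 as the main exception. Chaperonin and prefoldin subunits on the arrays labelled E62C also lay above the share of all genes, with 21.4% higher against 4.84%. That count depended on single arrays, as given below. Of 9 mitochondrial chaperones 1 fell on the arrays labelled E62A, HSP78, the mitochondrial relative of HSP104, at -0.41 ± 0.10 (limma adjusted p = 0.0171), a call that ended without any 1 of the 4 arrays compared (adjusted p = 0.0701 to 0.108). Of 14 chaperonin and prefoldin subunits 3 rose on the arrays labelled E62C, with CCT3 at 0.36 ± 0.07 (limma adjusted p = 0.00783), and this count was 1 without E62C replicate 2 and 0 without REF replicate 1. The CCT3 call itself ended without these arrays (adjusted p = 0.0516 and 0.0862). Of 31 proteasome subunits 3 fell on the arrays labelled E62A, a share of 9.68% near the 6.97% of all genes, and the list had a median of -0.12. None of the 3 calls held when any 1 of the 4 arrays compared was left out. Without E62C replicate 2 and SO16 replicate 2 the count was 6. In that fit the calls over all genes also rose, from 683 to 1246 of 5449, so the higher count is not read as a result about the proteasome. Of 6 ribosome-associated chaperones 0 passed in each comparison with REF by limma, and 1 had an unadjusted p under 0.05, for E62C. Of 12 chaperones of the endoplasmic reticulum 9 rose and 0 fell on the arrays labelled PGM2, with a median of 0.43, and this count was 3 to 5 without any 1 of the 4 arrays compared.

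**Figure D4:**
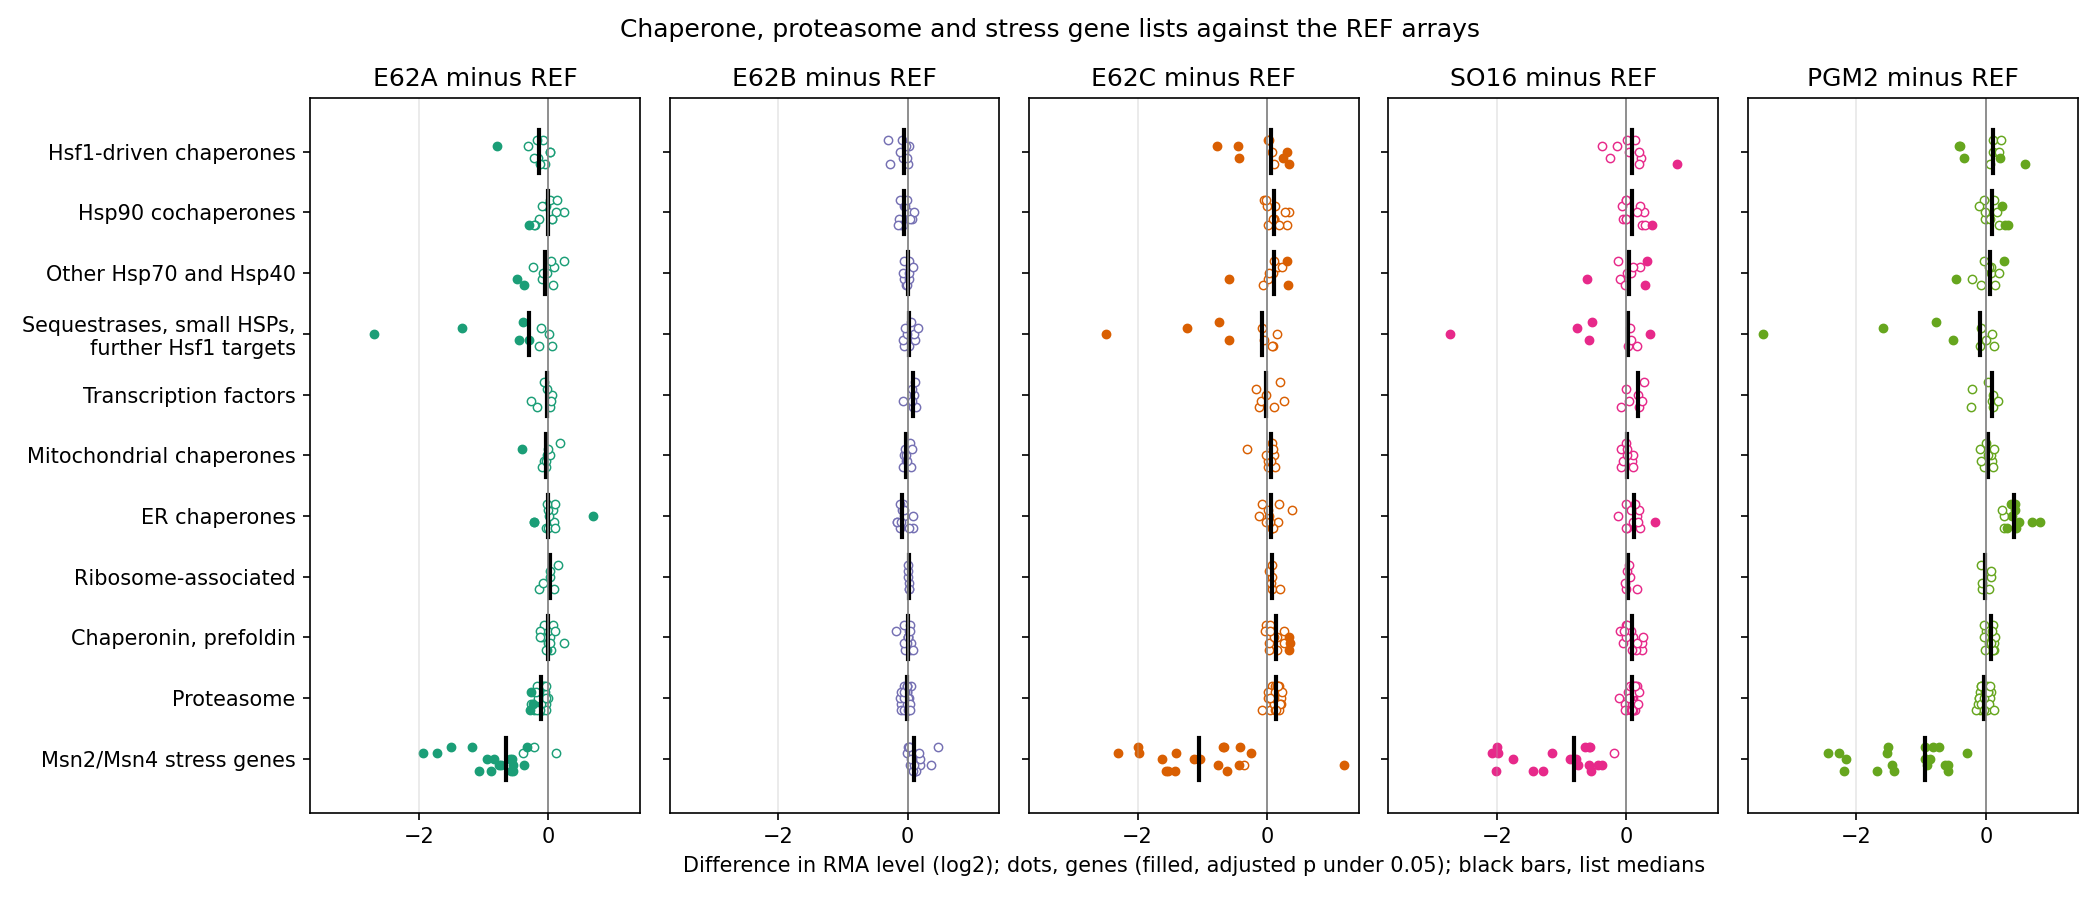
Differences from the REF arrays in log2 units (horizontal axis) for the genes of 11 lists (vertical axis). The lists were chosen with earlier results of these data known. Each dot is 1 gene, filled where the adjusted p was under 0.05, and black bars mark list medians. The Msn2 and Msn4 list has medians of -0.66 (E62A), -1.05 (E62C), -0.81 (SO16) and -0.94 (PGM2), with single genes reaching 0.13 for E62A and 1.19 for E62C, and the chaperones of the endoplasmic reticulum have a median of 0.43 for PGM2.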

How the data were processed

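Biotin-labelled RNA was hybridised to Affymetrix yeast arrays, per the labels' protocols. The values are the authors' deposited log2 table of 10928 probe sets by 12 arrays. The submitters' processing notes name RMA and the affy package without versions. RMA equalises the arrays, so a shift of all transcripts would be removed. Probe sets were named through the platform table, symbols were updated through gene identifiers of assembly R64, and the brightest probe set of each gene was kept. Background was the 95th percentile of 1746 fission yeast probe sets. The number of arrays limits the precision.

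One mean per group was fitted over all 12 arrays with limma 3.58.1 in R 4.3.3 (6 residual and 4.97 prior degrees of freedom), with adjustment within each of 15 comparisons. With 2 arrays a group the smallest exact permutation p is 0.333. The fit was tested on simulated data. Named genes were the 10 members, the genes that check the labels, up to 2 called genes with the largest change per list and comparison, and the genes with the highest Pearson r. Some further genes were named after their values were seen. The members and lists were chosen with earlier results of these data known. Replicate numbers did not pair the arrays over all groups. Promoter and protein sequences were not analysed here. Figures were drawn with matplotlib 3.10.9.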

Additional observations from a re-analysis of the deposited data

How the results depend on the processing

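Of 700 values of single chaperone genes under the alternatives, 614 kept their direction and side of the threshold, 48 lost a call, 21 gained one and 17 changed sign without a call before or after, and 0 calls changed direction. With array weights, with only the compared groups fitted, or without E62C replicate 2 and SO16 replicate 2, the count for E62A was 3. Over all genes 1224, 1113 and 1246 passed in these fits, against 683 in the main fit. For E62C it was 2 with only the compared groups fitted and 2 at an adjusted p under 0.01, with 5 without E62C replicate 2 and SO16 replicate 2, and for PGM2 it was 1 at an adjusted p under 0.01. For SO16 the count was 3 with centred array medians, 2 with quantile normalization over the genes tested and 2 with a trended and robust variance. Over all genes these settings gave 595, 614 and 490. With single arrays left out the counts ran from 1 to 1 for E62A, 0 to 0 for E62B, 1 to 3 for E62C, 1 to 1 for SO16 and 1 to 3 for PGM2. For E62B the count was 0 under all 14 alternatives. The cause was not tested. The replicate number as a block gave 3 for SO16 and 6 for PGM2, and left 1 for E62A, 0 for E62B and 6 for E62C. Over all genes the block gave 535 for SO16, 818 for PGM2, 794 for E62A, 0 for E62B and 632 for E62C. The main fit gave 479, 739, 683, 0 and 534. In the check of this pairing, 6 of 15 pairs of groups had replicate deviations correlated above 0.1 and 7 below 0 (r from -0.35 to 0.54), so the numbers do not pair the arrays over all 6 groups. Within E62B, PGM2 and REF every r was 0.47 to 0.53, and within E62A, E62C and SO16 it was 0.18 to 0.54. Between these sets of groups it was -0.35 to 0.098. E62A, E62C and SO16 were thus compared with REF across the sets, and a separate block for each set was not fitted. Of 38 calls of named list genes, 24 stood without any 1 array.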

Other observations

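On the arrays labelled PGM2 9 of 12 chaperones of the endoplasmic reticulum rose and 0 fell, where 7.03% of all genes rose. This list too was chosen with earlier results of these data known, so its count is a description. ERO1, the oxidase that drives disulfide formation, had 11.54 and 11.52 on these arrays, against 10.76 and 10.63 on REF (0.84 ± 0.08, limma adjusted p = 3.34e-05). SIL1, the nucleotide exchange factor of the Hsp70 protein in this compartment, lay at 10.09 and 10.05, against 9.40 and 9.31 on REF (0.71 ± 0.06, limma adjusted p = 2.3e-05). KAR2, that Hsp70 protein, lay at 13.10 and 13.04, against 12.63 and 12.59 on REF (0.46 ± 0.07, limma adjusted p = 0.00114). KAR2 was added after the values were seen. For each of these 3 genes the values on the arrays labelled PGM2 were the highest of all 12. Their calls stood without any 1 of the arrays compared. The rest of the 9, namely LHS1, JEM1, SEC63, EUG1, SCJ1 and FPR2, each lost the call without at least 1 of these arrays. The count of 9 for the list was 3 without PGM2 replicate 1 or REF replicate 2 and 5 without PGM2 replicate 2 or REF replicate 1. ERO1 also rose on the arrays labelled SO16, by 0.44 ± 0.08 (limma adjusted p = 0.0046). On the arrays labelled E62A EUG1, a disulfide isomerase, rose by 0.69 ± 0.11 (limma adjusted p = 0.00182), at 9.44 and 9.43 against 8.81 and 8.67 on REF, while 1 of the other 11 genes of the list fell, SIL1 at -0.21 ± 0.06, a call that ended without any 1 array (adjusted p = 0.0745 to 0.29). HAC1, the factor that drives these genes, was measured at 0.10 ± 0.10 for PGM2. It is controlled by splicing of its messenger RNA, which these probe sets do not report.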
